A study of Mus musculus with 4 samples.

Results

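The globin genes of mouse bone marrow were followed in single-cell RNA-seq of the 5′ ends of transcripts from 2 TLR9-/- and 2 wild-type (WT) mice. TLR9 is an endosomal receptor for DNA of microbes and dying cells. All 4 mice were labelled C57BL/6, and bone marrow mononuclear cells were taken from femur and tibia at the interface of a Ficoll gradient, with 1 library per mouse. The mice were profiled in 2 experiments that each held 1 mouse of either genotype, and the labels do not say whether the replicate numbers 1 and 2 mark these experiments. The genes were chosen by symbol: of 6 names in the rule, 5 had a row among the 31053 genes of the tables, namely the adult alpha globins Hba-a1 and Hba-a2, the adult beta globins Hbb-bs and Hbb-bt, and the embryonic beta-type globin Hbb-bh1. The alpha globin chaperone Ahsp was not analysed here.

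Haemoglobin is built from alpha-type and beta-type globin chains, each carrying a haem group. Red cell precursors start globin transcription as they lose the stem cell and progenitor programme and raise it until globin mRNA dominates the cell, while most other transcripts are lost. Each chain type comes from a cluster of genes on its own chromosome, in which the embryonic genes are used first and the adult genes later. Mouse strains differ in the beta globin haplotype, and Hbb-bs and Hbb-bt are the adult pair of the haplotype that C57BL/6 mice carry.

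The members lie in 2 clusters of the GRCm38 build. Hba-a1 (ENSMUSG00000069919) is at chr11:32283511-32284465 and Hba-a2 (ENSMUSG00000069917) at chr11:32296489-32297298, both on the plus strand. Hbb-bt (ENSMUSG00000073940) is at chr7:103812524-103813996, Hbb-bs (ENSMUSG00000052305) at chr7:103826534-103828096 and Hbb-bh1 (ENSMUSG00000052217) at chr7:103841637-103843164, all on the minus strand. Each has 3 exons in the GENCODE M21 transcript compared here.

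The coding sequences of each adult pair differ at 1 base, in exon 3. Counted from the A of the start codon, Hba-a1 and Hba-a2 differ by C381T in 429 coding bases, and Hbb-bs and Hbb-bt differ by C417T in 444 coding bases. These windows are shown because they hold the only coding base, in capitals, that separates a read of one copy from a read of the other. They are from the GENCODE M21 transcripts, in the orientation of the mRNA, and lie at chr11:32284328-32284357, chr11:32297145-32297174, chr7:103826678-103826707 and chr7:103812669-103812698, in this order.
Hba-a1: gcatgcctctctggaCaaattccttgcctc
Hba-a2: gcatgcctctctggaTaaattccttgcctc
Hbb-bs: ggtggctggagtggcCgctgccctggctca
Hbb-bt: ggtggctggagtggcTgctgccctggctca

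Outside the coding sequence, the alpha pair and the beta pair differ in how far their mRNAs can be told apart. The 35 bases before the start codon and the 50 bases after the stop codon held 0 differences between Hba-a1 and Hba-a2. Between Hbb-bs and Hbb-bt, 8 of the 50 bases before the start codon and 30 of the 50 bases after the stop codon differed, compared without gaps. In a 5′ assay, reads near the start of the mRNA can therefore name the beta copy, whereas the alpha copies share the 35 bases compared. The annotated transcript starts 196 bases before the start codon in Hba-a1 and 35 in Hba-a2. How reads of the longer stretch of Hba-a1 were assigned was not tested. Reads that match exons of both copies alike are not assigned to a gene by Cell Ranger. How many globin reads were lost in this way was not tested, and a share of Hba-a2 or a ratio of alpha to beta is a ratio of assigned molecules. Hbb-bh1 differed from Hbb-bs at 115 of 444 coding bases.

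The promoters of the adult genes share 3 short motifs, searched on both strands of the 250 bases before the RefSeq start: CACCC, which erythroid Krüppel-like factors bind, CCAAT, and the TATA-type element ATATAA. All 4 adult genes held each of them, whereas CACCC was in 52.0% of 32817 promoters of the same length, CCAAT in 33.8%, ATATAA in 9.10% and all 3 together in 1.36%. The stretch around the CCAAT box is shown because it differs between the beta genes and not between the alpha genes, with CACCC and CCAAT in capitals where they read in the orientation shown (RefSeq, GRCm38.p6).
Hba-a1: agagcaagcacaaaccagCCAATgagaact
Hba-a2: agagcaagcacaaaccagCCAATgagaact
Hbb-bs: gccaCACCCtggtaagggCCAATctgctca
Hbb-bt: gtaaCACCCtggcattggCCAATctgctca
They lie at chr11:32283566-32283595, chr11:32296383-32296412, chr7:103827993-103828022 and chr7:103813987-103814016. The gene positions given above are from GENCODE M21, whose starts can differ from the RefSeq starts used for the promoters. The Hba-a1 window therefore lies within the gene interval given above, and the Hbb-bt window overlaps the end of its own. Over 247 bases, shifted by 3 positions, the promoters of Hba-a1 and Hba-a2 held 0 differences. On both strands together, Hbb-bs held 1 CACCC and 1 CCAAT in this stretch, and Hbb-bt held 1 CACCC and 2 CCAAT, the second of them on the opposite strand as the lower-case attgg before the capitals. In the whole window Hbb-bt had 3 CACCC and 3 CCAAT, against 1 of each in Hbb-bs.

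After the filters, the libraries held 8895 to 10781 cells and 31210188 to 63958243 unique molecular identifiers (UMIs, each marking 1 captured molecule). Summed over all cells, Tlr9 had 41 and 48 UMIs in TLR9-/- replicates 1 and 2 and 120 and 97 in WT replicates 1 and 2. The transcript was thus lower but not at 0 in the TLR9-/- libraries, and the part of cell composition in this was not tested. Any 2 libraries shared 118 to 203 cell barcodes, at most 1.83% of the smaller library.

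Erythroid cells were gated by at least 3 of 16 erythroid genes that hold no globin. The gate took 884 and 745 cells of TLR9-/- replicates 1 and 2 and 1569 and 814 cells of WT replicates 1 and 2, which were 8.20%, 8.35%, 14.8% and 9.15% of the cells. WT replicate 1 stood above the other libraries, and both TLR9-/- libraries lay below both WT libraries (two-sided exact permutation p = 0.33, the smallest that 2 against 2 libraries allow). The stage was set by the share of 8 late genes in the UMIs of 8 early and 8 late stage genes, with early cells below 0.33 and late cells above 0.67. The gated cells had 9.49 to 11.7 distinct erythroid gate genes per cell on average. Markers of B cells made up 1.24 to 4.81 UMIs per 10000 in them, those of neutrophils 1.80 to 2.98, and those of stem and myeloid progenitors 16.4 to 31.3. The part of such cells in the results was not tested. Of all globin UMIs, 84.2% to 90.4% were in erythroid-gated cells.

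Globin mRNA rose from a trace to a large part of the cell along this order. In early cells the 5 genes made up 0.0771% and 0.0971% of the UMIs in TLR9-/- replicates 1 and 2 and 0.282% and 0.193% in WT replicates 1 and 2. In intermediate cells these shares were 2.91%, 1.83%, 4.61% and 3.49%, in the same order of libraries. In late cells they were 26.4%, 9.06%, 29.4% and 14.1%. Early and intermediate cells of both TLR9-/- libraries lay below those of both WT libraries. Late cells were ordered by replicate number instead, with both libraries numbered 1 above both numbered 2. Cells with a late-gene share of 0.67 to 0.9 had the same order, at 17.6%, 6.08%, 18.4% and 10.4%. From 0.9 to 1 the globin shares were 36.5%, 30.7%, 41.7% and 42.0%, with both TLR9-/- libraries below both WT libraries. These last cells numbered 301, 97, 762 and 89. The part of maturity in the order of the late cells was not tested. In the median late cell, globin took 38.4% and 10.9% of the UMIs in TLR9-/- libraries and 41.4% and 14.8% in WT libraries. Cells with more than 50% globin numbered 182, 40, 470 and 60, and they held 33.2%, 14.1%, 37.0% and 15.2% of all globin UMIs of their library.

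All 4 adult genes rose from early to late cells. The fit compared both stages within each library by edgeR's quasi-likelihood test, and adjusted p is the Benjamini-Hochberg value over all genes tested. Of 9226 genes, 32.5% were higher in late cells, and 4 of the 4 tested globin genes were. Hba-a1 rose by 6.61 on the log2 scale (standard error, SE, 0.30, adjusted p = 4.27e-08) and Hba-a2 by 7.48 (SE 0.35, adjusted p = 4.76e-08). Hbb-bs rose by 7.63 (SE 0.39, adjusted p = 6.84e-08) and Hbb-bt by 7.50 (SE 0.59, adjusted p = 1.28e-06). The stage genes hold no globin.

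**Figure D1:**
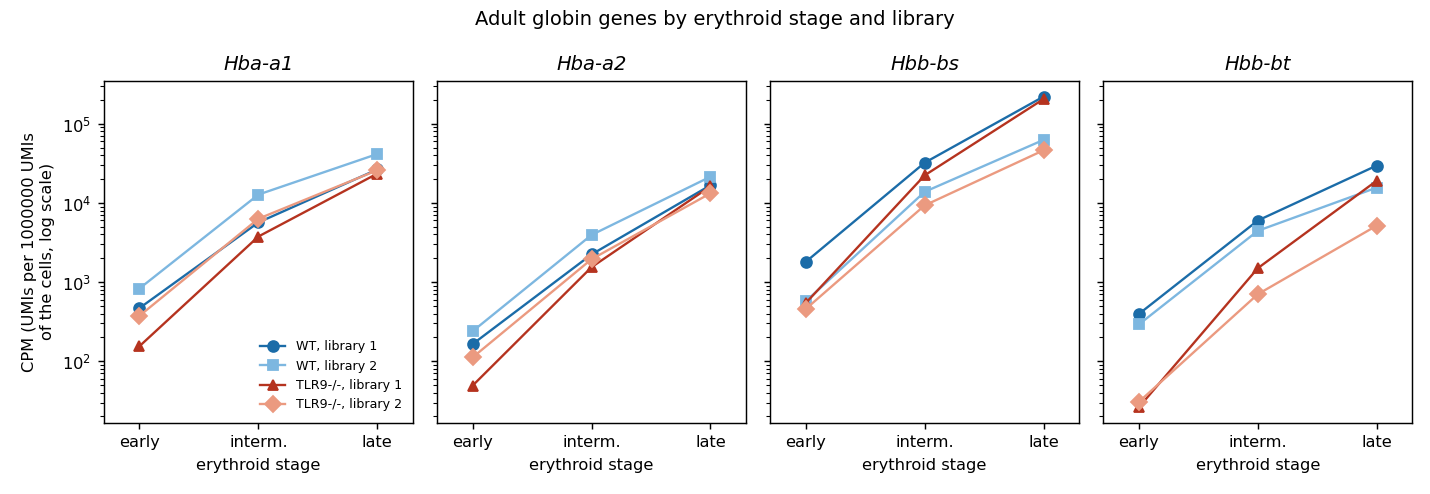
Level in CPM (UMIs per 1000000 UMIs of the summed cells, log scale) of the 4 adult globin genes in early, intermediate and late erythroid cells, with 1 line per library. Hbb-bt starts at 26.1 and 30.5 CPM in TLR9-/- libraries and at 395 and 291 in WT libraries, and the lines draw closer in late cells.

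The minor adult beta globin, Hbb-bt, was far lower in early erythroid cells of TLR9-/- mice. It had 72 and 170 UMIs in TLR9-/- replicates 1 and 2 and 777 and 1403 in WT replicates 1 and 2. In CPM, the UMIs per 1000000 UMIs of these cells, this was 26.1 and 30.5 against 395 and 291, and the genotypes did not overlap. The log2 fold change of TLR9-/- over WT was −3.59 (SE 0.19, adjusted p = 1.98e-05). In intermediate cells, Hbb-bt had 1496 and 701 CPM in TLR9-/- libraries and 5988 and 4439 in WT libraries. These values did not overlap either, and the log2 fold change was −2.31 (SE 0.35, adjusted p = 0.0453). The call in intermediate cells was lost without WT replicate 2, at −2.50 (adjusted p = 0.0977). In late cells, Hbb-bt had 19084 and 5166 CPM against 29669 and 15619, where TLR9-/- replicate 1 lay above WT replicate 2. The log2 fold change of −0.94 (SE 0.75, adjusted p = 1.00) did not pass the threshold.

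Among all genes, 0.378% were called between the genotypes in early cells, 0.233% in intermediate cells and 0.0554% in late cells, against 1, 1 and 0 of the 4 globin genes tested. The 0 in late cells was the same by DESeq2, which called 0.111% of all genes there. By edgeR, 0 of the 4 genes had an unadjusted p under 0.05 in late cells, where 222 of 7226 genes had one. When the stages were set instead by tertiles of the cells of each library, a choice made after seeing the data, the calls for Hbb-bt were lost, with log2 fold changes of −3.96 in the first tertile (SE 1.46, adjusted p = 0.905) and −1.78 in the second tertile (adjusted p = 0.999). In that setting 0.0926% of all genes were called in the first tertile and 0% in the second. The first tertile of WT replicate 1 held 523 cells, against 137 early cells.

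The other adult genes were also lower in the early cells of TLR9-/- mice, without passing the threshold. Hbb-bs, the major adult beta globin, had 542 and 456 CPM in TLR9-/- libraries and 1796 and 569 in WT libraries. Its genotypes did not overlap, but WT replicate 2 lay close to the TLR9-/- libraries, and the log2 fold change was −1.24 (SE 0.39, adjusted p = 0.502). Hba-a1 had 154 and 374 CPM against 468 and 827, with a log2 fold change of −1.32 (SE 0.37, adjusted p = 0.369). Hba-a2 had 49.0 and 111 against 164 and 238, with a log2 fold change of −1.33 (SE 0.32, adjusted p = 0.234). All 4 genes had an unadjusted p under 0.05 in early cells, as did 6.94% of all genes. For the 3 genes that were not called, the log2 fold change moved when 1 library was left out. These fits leave 1 library in a genotype and assume it to vary like the other genotype. Hbb-bs was at −1.84 without WT replicate 2, at −1.39 without TLR9-/- replicate 1 and at −1.11 without TLR9-/- replicate 2. Without WT replicate 1 it was at −0.23. Hba-a1 ranged from −2.08 to −0.82 and Hba-a2 from −2.05 to −0.90.

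Over all erythroid cells and over all cells of the marrow, 0 of the 4 genes tested passed the threshold, where 0.105% of 10440 genes and 0.268% of 14194 genes did.
In all cells, Hba-a1 had 962 and 1120 CPM in TLR9-/- libraries and 3534 and 2630 in WT libraries (log2 fold change −1.57, SE 0.21, adjusted p = 0.0845). These values did not overlap, and in a sum over the whole marrow fewer erythroid cells and less globin mRNA per cell cannot be told apart. Within erythroid cells, Hba-a1 had 7841 and 6215 CPM against 14766 and 10669, without overlap, whereas Hba-a2, Hbb-bs and Hbb-bt overlapped between the genotypes. How many of all genes separate in this way was not counted. The part of cell number and of mRNA per cell in the whole-marrow difference was not tested. In all cells, Hbb-bs had 8081 and 1961 CPM against 28969 and 3651, where TLR9-/- replicate 1 lay above WT replicate 2. By DESeq2, which called 6% of all genes in all cells, Hba-a1 and Hba-a2 passed the threshold there. In erythroid cells DESeq2 called 0 of the 4, and 0.498% of all genes. At an unadjusted p under 0.05, edgeR had 3 of the 4 genes in all cells, where 17.1% of all genes had one, and 1 of the 4 in erythroid cells, where 5.15% had one. When 1 library was left out, the log2 fold change in all cells ranged from −1.76 to −1.34 for Hba-a1 and from −1.89 to −1.05 for Hba-a2. Without WT replicate 1, the log2 fold change of Hbb-bs in erythroid cells turned from −0.94 to 1.44.

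**Figure D2:**
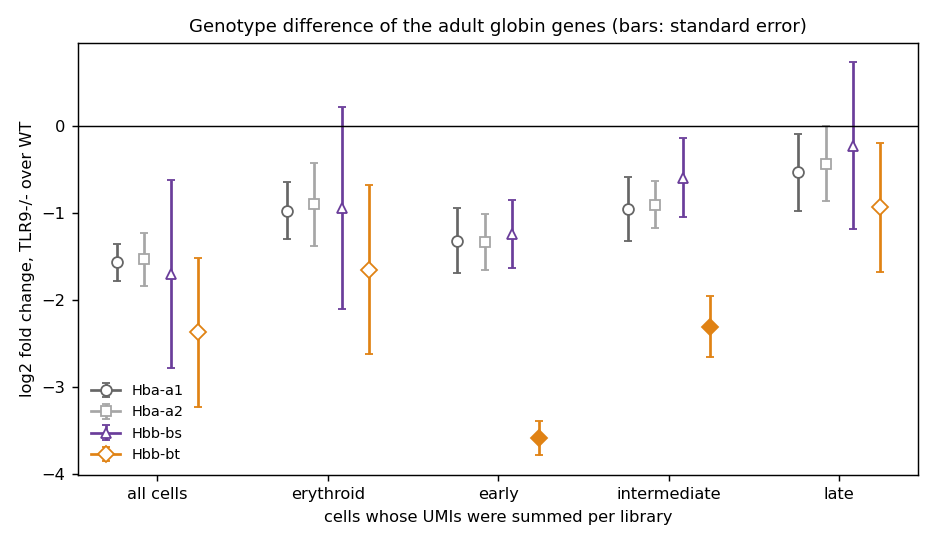
Log2 fold change of TLR9-/- over WT of the 4 adult globin genes (points, bars are standard errors, n = 2 libraries per genotype) in UMIs summed over all cells, erythroid cells and the 3 stages. Filled points have an adjusted p under 0.05, which are Hbb-bt in early cells at −3.59 and in intermediate cells at −2.31.

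Hbb-bt took a smaller part of the beta globin UMIs in both TLR9-/- libraries than in both WT libraries at each stage. Of the beta globin UMIs in early cells, Hbb-bt made up 4.60% and 6.28% in TLR9-/- replicates 1 and 2 (95% Wilson interval 3.67 to 5.76 for replicate 1), against 18.01% and 33.8% in WT replicates 1 and 2. In intermediate cells the shares were 6.29% and 7.01% against 15.7% and 24.3%. In late cells they were 8.49% and 10.0% against 11.8% and 19.96%. The genotypes did not overlap at any stage, and the share in early cells was 5.44% ± 1.19 in TLR9-/- and 25.9% ± 11.2 in WT libraries (SD, n = 2, two-sided exact permutation p = 0.33, the smallest possible).

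Between the early and the late stage, the share of Hbb-bt moved in opposite directions in the genotypes. From early to late cells it rose by 3.89 and 3.76 percentage points in TLR9-/- replicates 1 and 2, and it fell by 6.16 and 13.8 points in WT replicates 1 and 2. In the fit, the stage change of the level of Hbb-bt was larger in TLR9-/- by 2.33 on the log2 scale (SE 0.68). This interaction, added after seeing the data, had an unadjusted p of 0.00734 and an adjusted p of 1.00 over 9226 genes, of which 0.0108% were called, and 0 of the 4 globin genes were. DESeq2 also called 0 of the 4, and 0.0217% of all genes.

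The same order was found in narrower bins of the late-gene share. From 0.1 to 0.33, Hbb-bt took 4.76% and 6.15% of the beta UMIs in TLR9-/- libraries and 17.7% and 33.4% in WT libraries. From 0.9 to 1, it took 8.65% and 11.3% against 11.4% and 17.5%, where TLR9-/- replicate 2 and WT replicate 1 had overlapping 95% intervals. In single cells with at least 50 beta UMIs, the median share in intermediate cells was 5.42% (94 cells) and 6.12% (153 cells) in TLR9-/- and 16.4% (150 cells) and 24.6% (227 cells) in WT libraries. Without the 5 cells of most globin UMIs in each library, a check chosen after seeing the data, the shares in early cells were 4.65% and 6.77% against 24.7% and 39.5%. Those 5 cells held 22.9% to 48.6% of the globin UMIs of the early cells.

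**Figure D3:**
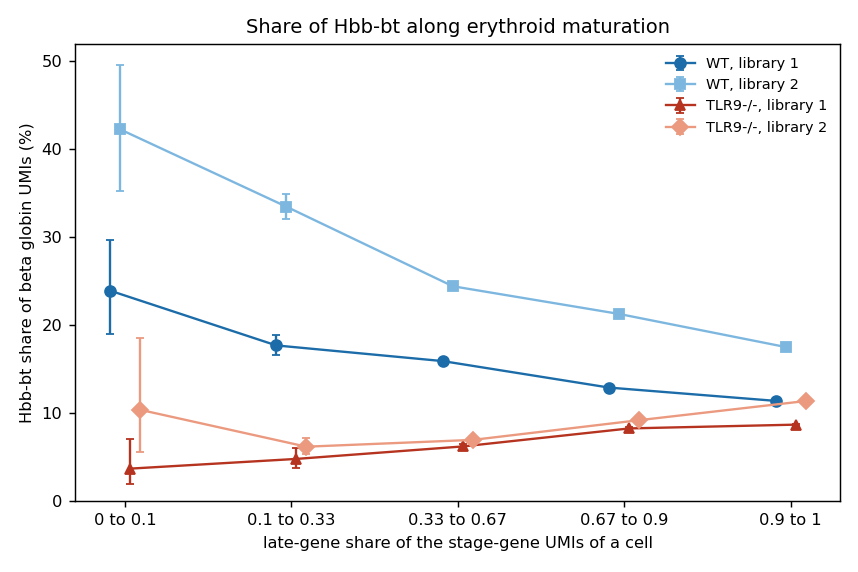
Share of Hbb-bt in the beta globin UMIs (%) of erythroid cells in 5 bins of the late-gene share, 1 line per library, with 95% Wilson intervals that cover counting error only. The WT libraries run downward and lie above both TLR9-/- libraries in the first 4 bins, and in the last bin WT replicate 1 at 11.4% meets TLR9-/- replicate 2 at 11.3%.

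The least mature bin, below 0.1, holds few globin molecules. Its beta UMIs numbered 219 and 87 in TLR9-/- libraries and 247 and 180 in WT libraries. Hbb-bt made up 3.65% and 10.3% of them in TLR9-/- libraries and 23.9% and 42.2% in WT libraries. In TLR9-/- replicate 2, the 95% Wilson interval was 5.54 to 18.5, and the share was lower in the next bin, at 6.15%. Globin made up 1.02 to 1.77 times the share found in non-erythroid cells with under 50 globin UMIs, which were less deep. In TLR9-/- replicates 1 and 2 and WT replicates 1 and 2, the globin share in this bin was 0.0169%, 0.00874%, 0.0367% and 0.0226%. In stem and myeloid progenitors with under 50 globin UMIs, the non-erythroid class of highest median depth, it was lower, at 0.00652%, 0.00199%, 0.0141% and 0.00511%. How much of the globin in this bin is free RNA was not tested. In early cells as a whole the globin share was 5.76 to 19.6 times that of the non-erythroid cells with under 50 globin UMIs. Hbb-bt alone was at 26.1, 30.5, 395 and 291 CPM in early cells, in the same order of libraries. In all non-erythroid cells without gate genes it was at 22.0, 18.5, 83.6 and 36.7. In the stem and myeloid progenitors among them it was at 6.31, 6.11, 41.9 and 7.87. How much of the Hbb-bt in early cells is free RNA was not tested.

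The balance of alpha to beta followed the replicate number and not the genotype. In erythroid cells the ratio of alpha to beta UMIs was 0.180 and 0.782 in TLR9-/- replicates 1 and 2 and 0.175 and 0.850 in WT replicates 1 and 2. Libraries numbered 1 had about the same ratio in both genotypes, and those numbered 2 lay above both of them. The difference of TLR9-/- minus WT was −0.0312 (two-sided exact permutation p = 1.00), with 0.00552 between the libraries numbered 1 and −0.0679 between those numbered 2. The ratio in early cells was 0.358 and 0.998 in TLR9-/- and 0.288 and 1.24 in WT libraries. In late cells it was 0.177 and 0.760 against 0.172 and 0.804, lower than in early cells in all 4 libraries. In late cells the split by number was seen in both adult beta genes. Hbb-bs had 205593 and 220779 CPM in the libraries numbered 1 and 46284 and 62638 in those numbered 2. Hbb-bt had 19084 and 29669 against 5166 and 15619. Hba-a1 had 23465 and 26482 against 25881 and 41490 there. In intermediate cells Hbb-bs and Hba-a1 differed by number, in opposite directions. Hbb-bs had 22299 and 32203 CPM in the libraries numbered 1 and 9306 and 13814 in those numbered 2, and Hba-a1 had 3758 and 5661 against 6308 and 12735. In early cells, Hbb-bs was at 542 CPM in TLR9-/- replicate 1 and 456 in TLR9-/- replicate 2, where Hba-a1 was at 154 and 374. Whether the numbers mark the 2 experiments is not given in the sources used here, and the part of the experiment in this split was not tested.

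**Figure D4:**
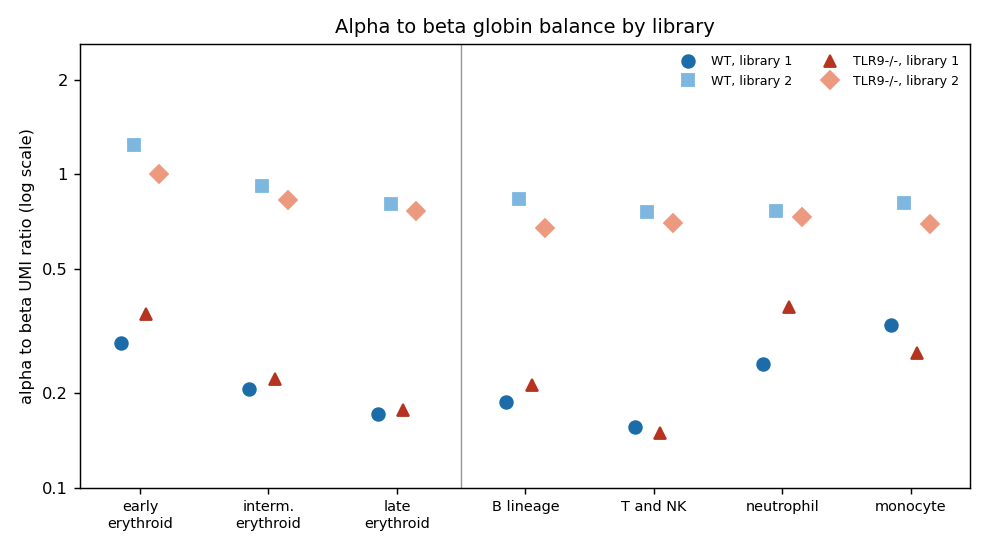
Ratio of alpha (Hba-a1 and Hba-a2) to beta (Hbb-bs and Hbb-bt) globin UMIs (log scale) in 3 erythroid stages and in 4 non-erythroid classes without erythroid gate genes, 1 point per library. Both libraries numbered 2 lie above both numbered 1 in every group plotted, whichever the genotype.

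The share of Hba-a2 in the alpha UMIs rose with maturation in all 4 libraries. It went from 24.1% to 40.8% and from 23.0% to 33.8% in TLR9-/- replicates 1 and 2, and from 26.0% to 38.7% and from 22.4% to 34.1% in WT replicates 1 and 2. In all erythroid cells it was 35.3% ± 6.31 in TLR9-/- and 34.0% ± 5.53 in WT libraries (SD, n = 2, two-sided exact permutation p = 0.67), and the genotypes overlapped. The alpha copies differ at 1 coding base, and how their shared reads were assigned was not tested.

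The embryonic gene Hbb-bh1 was close to 0. It had 0 and 2 UMIs over all cells of TLR9-/- replicates 1 and 2 and 0 and 2 in WT replicates 1 and 2, and it did not pass the filter on low counts in any fit. In the libraries at 0, a count of 0 allows up to 3 UMIs. Of the other globin rows, the embryonic alpha-type Hba-x had 3 and 6 UMIs against 37 and 6, the embryonic beta-type Hbb-y 0 and 0 against 6 and 1, and Hbb-bh2 0 in all libraries. The theta-type Hbq1b had 505 and 369 UMIs against 1351 and 471, and Hbq1a 14 and 11 against 38 and 18. Hbq1b rose from early to late cells by 7.24 on the log2 scale (adjusted p = 2.52e-08) and Hbq1a by 7.13 (adjusted p = 0.000137), and neither passed the threshold between genotypes.

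Globin UMIs were also spread over cells that lack the erythroid gate genes. In cells of the other classes with 0 UMIs of the 16 gate genes, globin made up 0.0325% and 0.0254% of the UMIs in TLR9-/- replicates 1 and 2 and 0.0943% and 0.0358% in WT replicates 1 and 2 (two-sided exact permutation p = 0.33). A few cells held most of it: 13, 29, 22 and 17 cells, in the same order of libraries, had at least 50 globin UMIs, and they held 58.9%, 80.6%, 61.8% and 55.9%. Without them, the share was 0.0134%, 0.00495%, 0.0362% and 0.0158%.

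Before depth was matched, a globin UMI was found in a like part of the cells of B lineage and monocyte classes within a library. Among B lineage cells (median depth 1231, 1753, 1148 and 1545 UMIs per cell) it was in 34.9% and 14.3% of the cells of TLR9-/- and in 53.6% and 36.8% of WT libraries. Among monocytes (median depth 4192, 4975, 3098 and 3969) it was in 37.7% and 17.2% against 55.8% and 42.9%. With each cell thinned to 1000 UMIs, the shares were 21.03%, 8.24%, 35.8% and 22.1% in B lineage cells and 10.9%, 6.00%, 26.0% and 14.8% in monocytes, so that the deeper class had the lower share after thinning. In stem and myeloid progenitor cells, the class of highest median depth in each library, the thinned shares were 8.24%, 3.10%, 11.2% and 9.05%. These classes do not transcribe globin as part of their programme, and the shares are taken here as the background of each library, although after thinning they were not alike between classes.

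**Figure D5:**
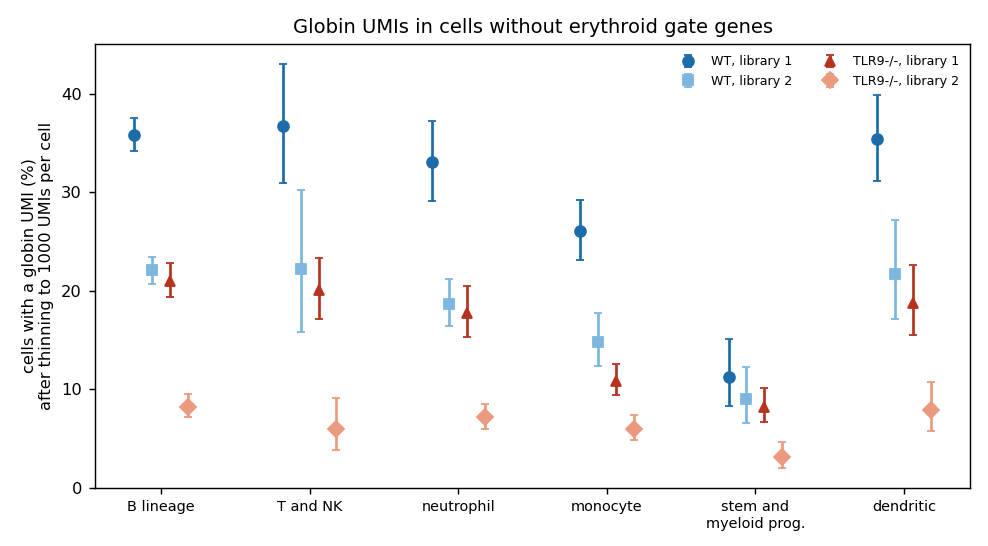
Share of cells with at least 1 globin UMI (%) after thinning each cell to 1000 UMIs, in 6 non-erythroid classes without erythroid gate genes, 1 point per library with 95% Wilson intervals that cover counting error only. TLR9-/- replicate 2 is lowest and WT replicate 1 highest in every class plotted, as in B lineage cells at 8.24% and 35.8%.

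In the share of Hbb-bt, the background without the cells of at least 50 globin UMIs lay close to the erythroid cells of its own library. In it, Hbb-bt made up 8.97% and 10.0% of the beta UMIs of non-erythroid cells in TLR9-/- libraries and 13.1% and 22.7% in WT libraries. In erythroid cells the shares were 8.33% and 9.19% against 12.1% and 21.7%, in the same order. The ratio of alpha to beta UMIs in this background was 0.262 and 0.716 in TLR9-/- libraries and 0.271 and 0.784 in WT libraries, so it was higher than in erythroid cells in the libraries numbered 1 and lower in those numbered 2. With all cells of these classes, Hbb-bt made up 8.46% and 12.4% of the beta UMIs in TLR9-/- and 10.7% and 18.6% in WT libraries. There, TLR9-/- replicate 2 lay above WT replicate 1. In the same cells, Hba-a2 made up 43.8% and 46.7% of the alpha UMIs in TLR9-/- and 43.0% and 42.8% in WT libraries. These shares lay above the 39.7%, 30.8%, 37.9% and 30.1% of erythroid cells. Between genotypes, 0 of the 4 adult genes passed the threshold in B lineage, neutrophil, monocyte or T and NK cells, where 0.228%, 0.387%, 0.325% and 0.0567% of the genes did. DESeq2 also called 0 of the 4 in each class, and 0.483%, 0.364%, 0.603% and 0.113% of all genes. At an unadjusted p under 0.05, edgeR had Hba-a1 and Hbb-bt in B lineage cells and Hbb-bt alone in neutrophils and in monocytes, where 4.72%, 5.4% and 7.04% of all genes had one.

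Genes that work with globin mostly rose along maturation, in a comparison in which 32.5% of all genes were higher and 33.1% lower in late cells. Of 8 enzymes of haem synthesis, 8 were higher in late than in early cells, among them Fech, which inserts iron into the ring, by 3.41 on the log2 scale (adjusted p = 9.16e-08). The erythroid enzyme Alas2 rose by 7.97 but is a stage gene itself. Of 6 genes of iron uptake, 5 were higher and 1 was lower, with the transferrin receptor Tfrc up by 2.63 (adjusted p = 5.77e-08) and Steap3 lower, at −0.80 (adjusted p = 0.00421). Slc25a37, the mitochondrial iron importer, is also a stage gene. Eif2ak1, the kinase that slows translation when haem is short, rose by 2.78 (adjusted p = 1.16e-07).

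Of 11 transcription factors known for globin control, 8 were higher and 3 lower in late cells, the latter a share near the 33.1% of all genes. Sox6 rose by 4.97 (adjusted p = 2.45e-08) and Nfe2 by 2.57 (adjusted p = 3.75e-07). Bcl11a, a repressor of embryonic globin genes, fell by 1.34 (adjusted p = 4.66e-06), and Ldb1 by 1.17 (adjusted p = 3.97e-05). Myb, the other one, is an early stage gene, and Klf1 and Gata1 are in the erythroid gate. The median over the 11 was 1.10, against −0.04 over all genes tested. Between genotypes, 0 of the genes in these 4 lists passed the threshold in erythroid cells or in any of the 3 stages. At an unadjusted p under 0.05, edgeR had 3 of these 26 genes in early cells, as did 6.94% of all genes, and 3 in intermediate cells, as did 6.93%. Those in intermediate cells were iron uptake genes, Tfrc at −0.60, Slc11a2 at −0.57 and Slc25a37 at −0.55 on the log2 scale.

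By pattern, the genes most like Hbb-bs were compared over 45 sums of at least 10 cells, 1 for each library and stage or class. The 45 sums come from 4 libraries, and erythroid and other cells of a library share its free RNA. Pearson's r of log2(CPM + 1) with Hbb-bs was 0.973 for Hbb-bt, 0.960 for Hba-a2 and 0.878 for Hba-a1. Of 12408 genes with at least 100 UMIs, the 5 others highest in r included Ranbp10 (0.924), Alas2 (0.914), Hbq1b (0.901) and Gm867 (0.897).

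The neighbours of the beta genes on chromosome 7 were counted after seeing the data. Within 1000 kb of Hbb-bs and Hbb-bt, 11 other genes were tested in all cells and 4 were called, all lower in TLR9-/-, or 36.4% against 0.268% of all genes. They were the antiviral TRIM family genes Trim34a, Trim5, Trim12a and Trim30d. Trim12a (chr7:104299894-104315466) had 0.0995 and 0.109 CPM after TMM scaling in TLR9-/- libraries and 33.7 and 30.5 in WT libraries, and Trim5 (chr7:104263386-104288094) 0.159 and 0.172 against 11.8 and 11.9. In erythroid cells, 0 of 6 tested neighbours of the beta genes were called, where 0.105% of all genes were, at a median log2 fold change of −3.50. By stage, 1 of 4 was called in early cells, lower in TLR9-/-, and 0 of 3 in intermediate and 0 of 4 in late cells. Of all genes, 0.378%, 0.233% and 0.0554% were called in these stages. Within the same distance of the alpha genes on chromosome 11, 0 of 17 genes tested in all cells were called. The part of these neighbours in the beta globin results was not tested.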

How the data were processed

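Bone marrow mononuclear cells of 2 TLR9-/- and 2 WT mice were profiled by 10x Genomics 5′ single-cell RNA-seq. The authors' deposited matrices hold UMI counts per gene and cell, made with Cell Ranger (3.0.1 per the file headers) on mm10. STAR and Seurat 2.3.4 are also named in the submitters' processing notes. Members and gene lists were chosen with earlier results of these data known. Cells with 200 to 10000 genes and at most 10% mitochondrial UMIs were kept, the limit printed in the methods as 0.10% being read as a fraction, and doublets were kept. Classes needed at least 3 of 16 erythroid or 2 of 8 other marker genes and more than any other class. Counts were summed per library and class and tested by edgeR 4.0.16 in R 4.3.3 (quasi-likelihood, TMM, filterByExpr, two-sided, Benjamini-Hochberg, threshold 0.05) with genotype as the term, or with library and stage. DESeq2 1.42.0 was an alternative. With 2 libraries per genotype, p-values between genotypes measure the spread between these libraries. As each experiment held 1 mouse of either genotype, this spread holds mouse and experiment together. The main fits do not use this pairing, because the labels do not tie the libraries to the experiments. On simulated early-cell counts of 9077 genes, 147 of 200 changed genes were recovered. The simulation gave all genes the same spread and used preset fold changes, so it does not give the power for the globin genes. Standard errors are the fold change over the root of its F. CPM is UMIs per 1000000 UMIs, without TMM except where stated. Intervals are Wilson's and cover counting error only. Named genes were all members, the pathway lists and the 5 genes most like Hbb-bs. Sequences were read from GENCODE M21 and RefSeq tables, in which the promoter of Hbb-bh1 was not used here. Single values of some genes in the lists and rankings are not reported here.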

Additional observations from a re-analysis of the deposited data

Results flagged for a closer look

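The share of Hbb-bt in the beta globin UMIs moved in opposite directions in the 2 genotypes between early and late erythroid cells. It rose by 3.89 points in TLR9-/- replicate 1 and by 3.76 points in TLR9-/- replicate 2. The change from early to late cells was −6.16 points in WT replicate 1 and −13.8 points in WT replicate 2. The mean changes were 3.82 and −10.0 points. This share was flagged because the direction was the same within each genotype and opposite between them. That choice fixes the exact permutation test of the 4 changes at its smallest value, p = 0.33 (two-sided), so the test adds no support. The same directions held with gates of 2 or 5 genes, without the filter on cells, with tertiles of the cells, without the 5 cells of most globin UMIs and in cells of at least 1000 UMIs, all of them chosen after seeing the data, with differences between the genotypes of 11.4 to 19.6 points.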

How the results depend on the processing

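Hbb-bt stayed lower in early TLR9-/- erythroid cells in all 13 alternatives. It was past the threshold in each that kept all 4 libraries, except with tertiles of the cells, at −3.96 on the log2 scale (adjusted p = 0.905). When 1 library was left out, its log2 fold change was −3.78 to −3.39. The rise of the 4 adult genes from early to late cells passed the threshold in all 12 alternatives. The cause of the changes below was not tested. With the replicate number as a block, 4 globin genes passed the threshold in all cells, 3 in erythroid cells, 4 in early, 4 in intermediate and 1 in late cells, 1 each in B lineage and neutrophil cells and 0 in monocytes and in T and NK cells. Of all genes, the block called 8.21%, 1.93%, 1.46%, 1.56% and 1.13% in the first 5 of these sets and 1.05% to 1.9% in the others, and Hbb-bs turned to 0.44 on the log2 scale in T and NK cells. The labels do not say what the number marks, and deviations from the group means of same-numbered libraries correlated at r = 0.32 over 14194 genes in all cells and r = 0.50 over 10386 genes in erythroid cells, each 1 value with 2 pairs. In early cells, 35 genes in all were called, against 135 with the block and 150 without the filter on low counts. Without that filter, 3 globin genes passed in all cells, 1 in erythroid, 4 in early, 3 in intermediate, 3 in B lineage and 1 in neutrophil cells, and 1 in the interaction of stage and genotype, where 0.12% to 2.98% of all genes did. DESeq2 called 2 in all cells, and 6% of all genes. Tertiles of the cells left 0 in early and 0 in intermediate cells, where 0.0926% and 0% of all genes were called. With all cells gated to the class, 1 passed in neutrophils and 2 in T and NK cells, where 0.448% and 0.0955% of all genes did. The 2 in T and NK cells were Hba-a1, which turned to −2.51, and Hbb-bt. Hba-a2 turned to −2.32 there without passing. With only cells under 50 globin UMIs, 1 passed in monocytes, where 0.345% of all genes did, and in T and NK cells Hba-a1 was −0.99 and Hba-a2 −0.78.

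Leaving out 1 library leaves 1 library in a genotype, so counts of calls in these refits are left out here. In the interaction, Hbb-bt reached 3.56 on the log2 scale without TLR9-/- replicate 2. The log2 fold change of Hbb-bs ranged from −1.84 to −0.23 in early cells, −3.04 to 0.46 in all cells, −2.88 to 1.44 in erythroid, −1.40 to 0.11 in intermediate, −1.94 to 1.13 in late, −1.82 to 0.49 in B lineage, −0.65 to 0.33 in monocyte and −1.18 to 2.96 in T and NK cells, and from −0.44 to 1.74 in the interaction. Hba-a1 ranged from −0.96 to 0.0497 in neutrophils and −0.25 to 1.11 in T and NK cells, Hba-a2 from −0.64 to 0.58 and −0.27 to 1.75, and Hbb-bt from −1.55 to 1.34 in T and NK cells. The difference of TLR9-/- minus WT ranged from −0.369 to 0.306 for the alpha to beta ratio and from −3.22 to 5.70 points for the share of Hba-a2, but from −12.9 to −3.32 points for the share of Hbb-bt in erythroid and −28.4 to −12.6 in early cells. A lone library was assumed to vary like the other genotype. Ahsp per alpha globin was not run. In the least mature cells, few globin UMIs limit the precision.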
